A study of Homo sapiens with 4 samples.

Results

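The MAPK output and feedback genes are transcripts widely read as an output of the ERK branch of MAPK signalling, and they were followed in T24 cells given isorhapontigenin (ISO). They were taken by name as DUSP4, DUSP5, DUSP6, SPRY2, SPRY4, SPRED1, ETV4, ETV5, PHLDA1 and IER3. The choice followed no rule on their measured values, but earlier results of these data were known when it was made. All 10 were found among the 47432 genes of the expression table. All 10 were also among the 15304 genes with a mean of at least 0.1 RPKM (reads on a gene, scaled by exon length and by library depth) that were tested. RNA-sequencing compared T24 cells given 20 µM ISO for 24 h with untreated T24 cells, with 2 libraries, a and b, in each group. ISO is a plant stilbene, and T24 is an established human bladder cancer line that carries an activating HRAS mutation. The cells differed by ISO alone as far as the labels say, whereas the methods of the study name DMSO as the vehicle of the control cells, and no source says whether libraries a and b were separate cultures. Each p-value is thus set against the spread of these libraries alone, shared in part across genes, and that spread may be technical.

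In the ERK branch, growth factor receptors activate RAS, which activates RAF, MEK and ERK in turn, and ERK phosphorylates cytoplasmic proteins and transcription factors, those of the ETS family among them. Some of the genes that ERK switches on encode brakes on the same pathway. Dual-specificity phosphatases remove phosphate from ERK, and Sprouty and SPRED proteins act upstream on RAS and RAF, so the transcripts of these genes follow the activity of the pathway in many epithelial tumour cells. The proteins and their phosphorylation were not measured here.

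The ISO libraries held 39028228 (a) and 32349827 (b) reads on genes, and the untreated libraries held 42879427 (a) and 40396212 (b). At these depths 3 reads on 1 kilobase of exon, the limit that a count of 0 allows, corresponded to 0.0735 and 0.0885 RPKM in the ISO libraries and 0.0670 and 0.0709 RPKM in the untreated libraries. Each member had between 565 and 12863 reads in every library, so that counting error alone was at most 4.21% of a value (SPRY2) and at most 1.204% for PHLDA1. The libraries carried epithelial keratins, with KRT7 at 311 and 310.4 RPKM in ISO cells and 371 and 369 RPKM in untreated cells, but KRT5 had no read in any library and CDH1, encoding E-cadherin, had 1 read in total. Of the leukocyte markers reported here, PTPRC, CD3E and LYZ had no read in any library. CD14, however, had 207 and 205 reads in ISO cells and 223 and 208 reads in untreated cells. Of 4 endothelial markers KDR had no read, whereas CDH5, encoding VE-cadherin, stood at 14.0 and 14.5 RPKM in ISO cells and 17.7 RPKM in both untreated libraries.

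Because ERK acts on ETS factors at promoters, the 250 bases before the start site were searched on both strands for CCGGAA (ETS), TGANTCA (AP-1), TGACGTCA (CRE) and the CArG box (SRF). RefSeq windows on GRCh38.p14 were at hand for 5 of the 10 members, DUSP6, PHLDA1, SPRED1, SPRY2 and SPRY4, with 7 start sites between them. The 3 of these genes with the largest falls after ISO are shown on their own strand, 5′ to 3′, with ETS letters in capitals. PHLDA1 is at chr12:76031777-76032026, SPRY2, at its outermost start site, at chr13:80341127-80341376, and DUSP6 at chr12:89352502-89352751, all on the minus strand.
PHLDA1: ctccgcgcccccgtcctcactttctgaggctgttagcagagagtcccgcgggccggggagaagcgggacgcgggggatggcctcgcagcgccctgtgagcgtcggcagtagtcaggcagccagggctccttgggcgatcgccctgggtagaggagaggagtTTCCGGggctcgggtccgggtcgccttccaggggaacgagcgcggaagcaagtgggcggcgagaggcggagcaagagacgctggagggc
SPRY2: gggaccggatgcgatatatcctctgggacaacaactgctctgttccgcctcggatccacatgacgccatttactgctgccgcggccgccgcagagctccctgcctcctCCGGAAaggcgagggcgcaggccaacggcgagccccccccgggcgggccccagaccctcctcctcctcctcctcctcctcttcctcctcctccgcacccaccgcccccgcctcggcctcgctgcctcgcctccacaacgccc
DUSP6: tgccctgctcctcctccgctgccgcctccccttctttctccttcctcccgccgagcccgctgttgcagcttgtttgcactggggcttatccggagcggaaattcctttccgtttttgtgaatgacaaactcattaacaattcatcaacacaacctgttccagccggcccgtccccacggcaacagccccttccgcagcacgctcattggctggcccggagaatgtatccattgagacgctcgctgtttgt
PHLDA1 held 1 ETS match, read as TTCCGG, whose first base lay at -89 from the start site. SPRY2 held 1, read as CCGGAA, at -142, and DUSP6 held none. None of the 7 windows held AP-1, CRE or CArG letters. Of 35116 RefSeq windows of this length 14.5% held CCGGAA, 6.57% the AP-1 letters, 1.65% the CRE letters and 1.16% a CArG box, so that an ETS match in 2 of 7 windows is a description of these letters and says nothing of a bound site.

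All 10 genes were lower in ISO cells in the plain sense that both ISO libraries lay below both untreated libraries. Over all tested genes this was so for 18.3%, and for 29% after TMM scaling (trimmed mean of M values, a correction of library size). Under limma on log2(RPKM + 0.1), with adjustment over all tested genes, 6 of the 10 fell at an adjusted p under 0.05: PHLDA1, SPRY2, IER3, DUSP6, SPRED1 and ETV5. None rose, and none had a positive fold change at any p. In the same test 4.12% of the tested genes fell and 9.3% rose. In bulk RNA, fewer cells expressing a gene and less of its RNA per cell cannot be told apart. The median log2 fold change of the 10 members was -0.17, beside 0.06 over all tested genes, and their changes were modest, between 7.32% (SPRY4) and 29.1% (PHLDA1) lower by the ratio of means.

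**Figure D1:**
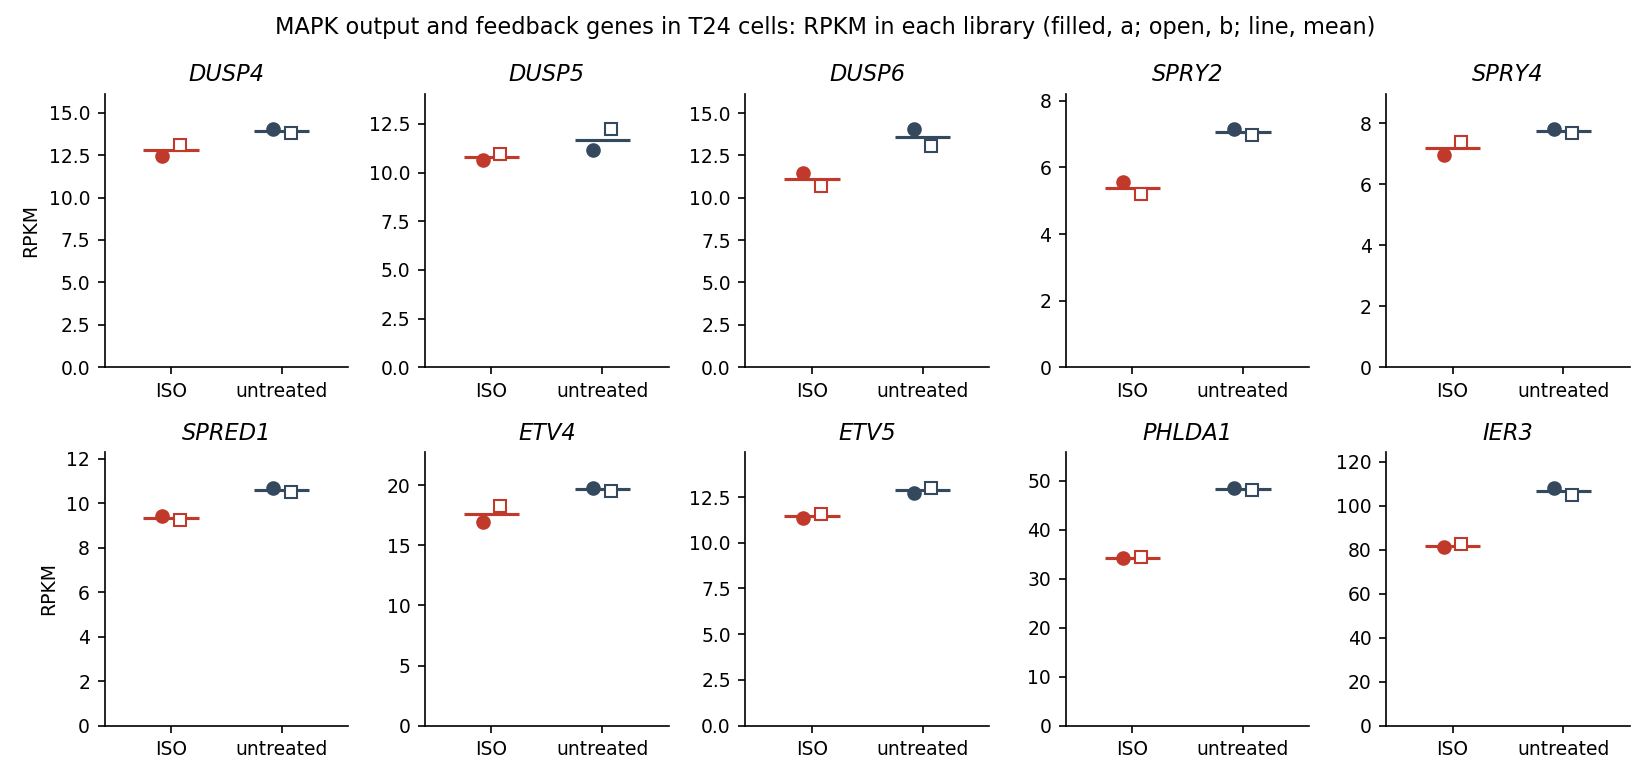
RPKM of the 10 MAPK output and feedback genes in each of the 4 libraries (vertical axis from 0 in each panel, with ISO left and untreated right; filled points, library a; open points, library b; line, group mean of n = 2). In every panel both ISO points lie below both untreated points, with the widest gap, as a ratio, for PHLDA1 (34.2 and 34.4 RPKM in ISO, 48.6 and 48.2 RPKM in untreated cells) and a narrow one for DUSP5 (10.6 and 10.97 RPKM in ISO, 11.1 and 12.2 RPKM in untreated cells).

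The scaling between libraries moved the whole table. As deposited, 1424 genes rose and 630 fell, so that 69.3% of the calls were higher in ISO, whereas after TMM scaling 606 rose and 880 fell, with 40.8% of the calls higher and the median of all genes at -0.0012, beside 0.06 as deposited (log2). Relative to the TMM-scaled background, in which 5.75% of tested genes fell, DUSP4 and ETV4 also passed and 8 of the 10 members fell, with a median of -0.23. With limma-voom on reads recovered from the RPKM, where 10.3% of tested genes fell, 9 of the 10 fell and DUSP5 missed the threshold (adjusted p = 0.0504). PHLDA1 and IER3 passed in all 13 alternatives as well, DUSP5 passed in none of them, and no member changed sign in any.

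**Figure D2:**
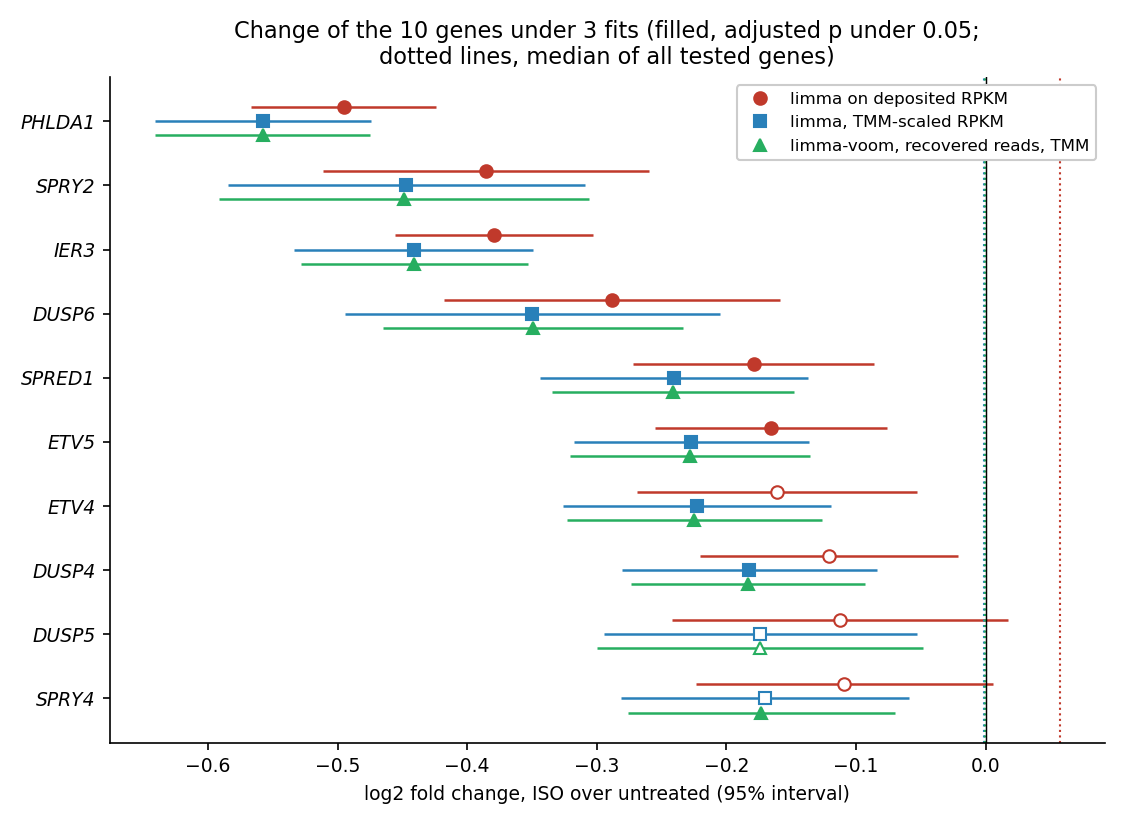
Log2 fold change of each member, ISO over untreated (horizontal axis), with its 95% interval under 3 fits: limma on deposited RPKM, limma on TMM-scaled RPKM and limma-voom on recovered reads. Filled symbols passed at an adjusted p under 0.05 and dotted lines mark the median of all tested genes. PHLDA1, at -0.50 with deposited RPKM, lies farthest left, and the intervals of DUSP5 and SPRY4 reach above 0 with deposited RPKM only.

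Of the ERK phosphatases, DUSP6 fell and DUSP4 and DUSP5 did not pass. DUSP6 (chr12:89347235-89352501, minus strand, hg38) encodes a cytoplasmic phosphatase selective for ERK, and it stood at 11.5 and 10.7 RPKM in ISO cells, against 14.1 and 13.1 RPKM in untreated cells. The highest ISO value was below the lowest untreated value, and the change was -0.29 (log2, SE 0.053, adjusted p = 0.0230), or 18.2% lower by means. That call was lost in each fit that left out 1 library, with adjusted p between 0.0545 and 0.0984, while the log2 fold change stayed between -0.34 and -0.24. DUSP4 encodes a nuclear phosphatase of ERK and related kinases and stood at 12.5 and 13.1 RPKM in ISO cells, against 14.0 and 13.8 RPKM in untreated cells. Its difference of -0.12 (log2, 95% interval -0.22 to -0.02, adjusted p = 0.106) passed only after rescaling, with -0.18 and an adjusted p of 0.0419 under TMM. DUSP5, a nuclear phosphatase of ERK on chr10:110497907-110511533 (plus strand), stood at 10.6 and 10.97 RPKM in ISO cells, against 11.1 and 12.2 RPKM in untreated cells. The groups were separated by a gap smaller than the spread of the untreated pair, and the difference of -0.11 had an interval that spans 0 (-0.24 to 0.02, adjusted p = 0.215).

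Of the Sprouty and SPRED inhibitors, SPRY2 and SPRED1 fell. SPRY2 (chr13:80335976-80341126, minus strand), which restrains signalling from receptor tyrosine kinases to ERK, was the least abundant member and stood at 5.57 and 5.19 RPKM in ISO cells, against 7.15 and 6.96 RPKM in untreated cells. The groups were well apart, and the change was -0.39 (log2, SE 0.052, adjusted p = 0.0106), or 23.8% lower by means. Without ISO library a it still passed, and without any one of the other libraries the adjusted p lay between 0.0511 and 0.0538. SPRED1 (chr15:38252836-38357249, plus strand) encodes a protein that brings the RAS inhibitor neurofibromin to the membrane, and it stood at 9.45 and 9.27 RPKM in ISO cells, against 10.7 and 10.5 RPKM in untreated cells. Both pairs were tight, and the change was -0.18 (log2, SE 0.038, adjusted p = 0.0334), although it missed the threshold whenever 1 library was left out (adjusted p between 0.0950 and 0.151). SPRY4 (chr5:142310427-142326455, minus strand), a relative of SPRY2 with a like role, stood at 6.96 and 7.40 RPKM in ISO cells, against 7.81 and 7.68 RPKM in untreated cells, a difference of -0.11 (log2, 95% interval -0.22 to 0.01, adjusted p = 0.180). It passed with limma-voom alone (adjusted p = 0.0181).

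The PEA3 ETS factors ETV4 and ETV5 are transcription factors that act downstream of FGF receptor and ERK signalling. ETV5 (chr3:186046314-186110318, minus strand) stood at 11.4 and 11.6 RPKM in ISO cells, against 12.7 and 13.0 RPKM in untreated cells, with a log2 fold change of -0.17 (SE 0.037, adjusted p = 0.0373). ETV4 (chr17:43527844-43579620, minus strand), the more abundant of the pair, stood at 16.9 and 18.2 RPKM in ISO cells, against 19.8 and 19.5 RPKM in untreated cells. The ISO libraries of ETV4 were farther apart than its untreated ones, and its difference of -0.16 (log2, SE 0.044, adjusted p = 0.0645) passed after TMM scaling (-0.22, adjusted p = 0.0276). The changes of ETV5 and ETV4 were close in size, and the larger standard error was that of ETV4. The call of ETV5 was lost when any 1 library was left out, with adjusted p between 0.1004 and 0.159.

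The early response genes PHLDA1 and IER3 were the most abundant members and both fell. PHLDA1 (chr12:76025447-76031776, minus strand) encodes a pleckstrin homology-like protein induced by growth factors, and it stood at 34.2 and 34.4 RPKM in ISO cells, against 48.6 and 48.2 RPKM in untreated cells. The libraries of each group agreed to within 1 RPKM, and the change of -0.50 (log2, SE 0.029, adjusted p = 0.00112) stood at percentile 2.78 of the fold changes of all tested genes. IER3 (chr6:30743199-30744548, minus strand) encodes a short-lived protein linked to survival after growth factor and stress signals, and it stood at 81.2 and 82.6 RPKM in ISO cells, against 108.2 and 104.9 RPKM in untreated cells. Its change was -0.38 (log2, SE 0.031, adjusted p = 0.00323), or 23.1% lower by means. Without any one library the adjusted p reached at most 0.01402 for PHLDA1 and 0.0285 for IER3.

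In GENCODE v44, 6 other genes share exon bases with members, and the sources do not state whether reads were counted by strand, so that reads from a gene and its antisense partner may not have been told apart. PHLDA1-AS1, a long non-coding RNA on the opposite strand, shares 553 of its 569 exon bases with PHLDA1. These are 9.35% of the exon length of PHLDA1. Nearly all of PHLDA1-AS1 thus lies within exons of PHLDA1, and without knowledge of strand the reads counted for it may stem from either gene. PHLDA1-AS1 stood at 7.83 and 9.70 RPKM in ISO cells (182 and 187 reads), against 2.75 and 0.789 RPKM in untreated cells (70 and 19 reads). It was thus higher where PHLDA1 was lower, with a log2 fold change of 2.47 (SE 0.49, 95% interval 1.28 to 3.66, adjusted p = 0.0275), and it was singled out after its values were seen. Without ISO a it missed the threshold (adjusted p = 0.0997), as it did without ISO b (adjusted p = 0.119), and without untreated a the log2 fold change was 3.31, without untreated b 1.63. Its reads were few beside those of PHLDA1, which had 8248 and 6898 in ISO cells and 12863 and 12063 in untreated cells. ENSG00000274021, opposite to DUSP6 over 1105 bases (28.6% of the exon length of DUSP6), stood at 0.304 and 0.235 RPKM in ISO cells, against 0.396 and 0.335 RPKM in untreated cells (adjusted p = 0.281). IER3-AS1, which shares 440 bases with IER3, had 1 and 0 reads in ISO cells and 7 and 4 in untreated cells and was not tested. HCG20 shares 85 bases with IER3, DHX8 shares 68 with ETV4 and DGKG, on the same strand, shares 164 with ETV5.

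**Figure D3:**
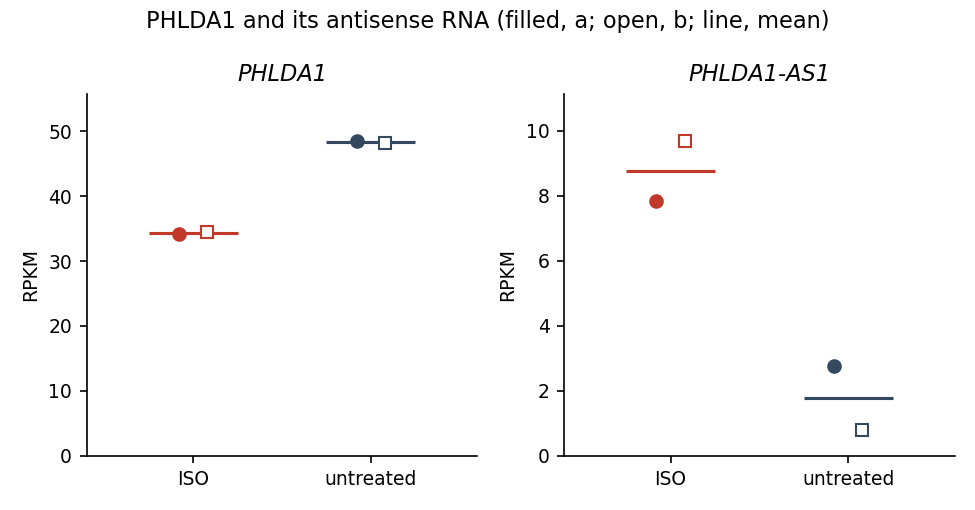
RPKM of PHLDA1 (left panel) and of PHLDA1-AS1 on the opposite strand (right panel) in each library, with ISO left and untreated right, on axes from 0 (filled points, library a; open points, library b; line, mean of n = 2). PHLDA1 is lower in ISO cells, whereas PHLDA1-AS1 is higher there, at 7.83 and 9.70 RPKM against 2.75 and 0.789 RPKM in untreated cells. Of the 569 exon bases of PHLDA1-AS1, 553 lie in exons of PHLDA1, and no source says whether reads were counted by strand.

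By level per exon length the order was much the same in both groups. In ISO cells IER3 was followed by PHLDA1, ETV4, DUSP4, ETV5, DUSP6, DUSP5, SPRED1, SPRY4 and SPRY2. ETV5 and DUSP6 did not differ beyond the range of their ISO libraries, nor did DUSP6 and DUSP5. In untreated cells DUSP6 stood above ETV5 and overlapped with DUSP4, and the other genes kept their order. IER3 lay above 97.8% of tested genes by mean RPKM and SPRY2 above 64.4%, so that none of the 10 was near the limit of detection.

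The pattern of DUSP6 over the 4 libraries was compared with that of 10734 genes of at least 1 RPKM by the Euclidean distance between log2 profiles centred on their mean. The nearest were KLF10, a Krüppel-like repressor, at a distance of 0.03, INPP4B, an inositol phosphatase, and KRT19, a keratin of simple epithelia. KLF10 stood at 24.5 and 22.8 RPKM in ISO cells, against 29.8 and 28.4 RPKM in untreated cells. INPP4B, near the filter of 1 RPKM, stood at 1.13 and 1.06 RPKM in ISO cells, against 1.41 and 1.28 RPKM in untreated cells. It did not pass in limma (adjusted p = 0.106). KRT19 stood at 48.1 and 45.6 RPKM in ISO cells, against 60.3 and 56.3 RPKM in untreated cells. In each of these genes, as in DUSP6, library a was above library b within each group. Of the members SPRY2 was nearest to DUSP6, at rank 114, followed by SPRED1 at 235 and IER3 at 239, and DUSP5 was the farthest at 1812. With 4 libraries this likeness describes the table and says nothing of shared control.

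The wider ERK output was described with 20 other genes, listed with earlier results of these data known. Of them 19 were tested and EGR3 was too low. Of these 19, 11 fell and none rose, with a median log2 fold change of -0.24. Both ISO libraries lay below both untreated ones in 12 and above them in 4. Over all tested genes 4.12% fell and 9.3% rose, and both ISO libraries lay below in 18.3% and above in 41.9%. The smallest p belonged to FOSL1, an AP-1 subunit stabilised by ERK, at 89.1 and 86.9 RPKM in ISO cells, against 155 and 170 RPKM in untreated cells (log2 fold change -0.88, adjusted p = 0.000887). LIF, a cytokine of the IL-6 family, stood at 37.96 and 39.3 RPKM in ISO cells, against 60.1 and 58.2 RPKM in untreated cells, with a log2 fold change of -0.62 (adjusted p = 0.000981). PLAUR, the urokinase receptor, stood at 10.7 and 11.1 RPKM in ISO cells, against 16.5 and 16.7 RPKM in untreated cells, with a log2 fold change of -0.60 (adjusted p = 0.00146). The 8 that did not pass were EPHA2, EPHA4, EGR1, FOS, IER5, HMGA2, PHLDA2 and TRIB1. Of these, EGR1 and FOS, the classical immediate early genes, had at most 50 and 75 reads in a library, while IER5, one of the 4 that stood higher in both ISO libraries with EPHA4, HMGA2 and TRIB1, was at 18.6 and 19.9 RPKM, against 16.7 and 17.3 RPKM in untreated cells (adjusted p = 0.0503). The counts of 11 and 0 were the same after TMM scaling and with limma-voom. With 1 library left out the 11 became 7 (without untreated a or ISO b) or 8 (without untreated b or ISO a), and PHLDA2 rose without untreated b. FOSL1, LIF and PLAUR passed in each of these fits, and IER2 and KLF6 in none.

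Of the 19 tested relatives of the members in 3 families, 2 fell and 1 rose, beside 4.12% and 9.3% of all tested genes. Of the other MAPK phosphatases 7 were tested, and 1 fell and 1 rose, with a median of 0.02 (-0.04 after TMM scaling). DUSP1, which acts on p38 and JNK as well as ERK, stood at 37.0 and 35.2 RPKM in ISO cells, against 40.3 and 43.9 RPKM in untreated cells (-0.22, adjusted p = 0.0408). DUSP10, which prefers p38 and JNK, stood at 5.197 and 5.36 RPKM in ISO cells, against 4.23 and 4.62 RPKM in untreated cells (0.25, adjusted p = 0.0436, and 0.0869 after TMM scaling). None of the 4 other Sprouty and SPRED genes passed in limma, at an unadjusted p under 0.05 or with limma-voom, and their median was 0.0010 (-0.05 after TMM scaling). SPRY1 and SPRY3 were below 0.33 RPKM in every library. Of 8 other ETS factors tied to ERK, ETS2 fell, with 8.73 and 9.04 RPKM in ISO cells, against 10.4 and 10.5 RPKM in untreated cells (-0.23, adjusted p = 0.0195), and the median of the list was -0.01. ETV1, the third PEA3 factor, stood at 3.10 RPKM in both ISO libraries, against 2.96 and 2.78 RPKM in untreated cells (0.11, adjusted p = 0.271).

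Most transcripts of the pathway upstream of ERK did not pass. The list of 21 components of the RAS-RAF-MEK-ERK pathway included genes upstream of RAS and genes that act against it. Of these 21, 2 fell and none rose, beside 4.12% and 9.3% of all tested genes. Their median was -0.00080 (-0.06 after TMM scaling). MAP2K1, encoding MEK1, stood at 14.7 and 14.3 RPKM in ISO cells, against 17.0 RPKM in both untreated libraries (-0.23, adjusted p = 0.0141). RASA2, which encodes a GTPase-activating protein of RAS and so acts against the pathway, stood at 2.58 RPKM in both ISO libraries, against 3.04 and 3.11 RPKM in untreated cells (-0.24, adjusted p = 0.0398). HRAS stood at 59.4 and 61.1 RPKM in ISO cells, against 65.6 and 64.6 RPKM in untreated cells, and missed the threshold (adjusted p = 0.0646, and 0.0323 after TMM scaling). After TMM scaling 4 components fell, beside 5.75% of all tested genes, and with limma-voom 6, beside 10.3%. Among 7 tested ERBB receptors and ligands 3 ligands fell, beside 4.12% of all tested genes. HBEGF, another ERBB ligand, was listed with the ERK output genes and fell too (-0.38, adjusted p = 0.00702). HBEGF stood at 10.1 RPKM in both ISO libraries, against 12.8 and 13.6 RPKM in untreated cells. EREG, encoding epiregulin, stood at 4.06 and 3.82 RPKM in ISO cells, against 12.1 and 12.5 RPKM in untreated cells, with a log2 fold change of -1.62 (adjusted p = 0.000202). AREG, encoding amphiregulin, stood at 1.28 and 1.67 RPKM in ISO cells, against 2.99 and 2.43 RPKM in untreated cells (-0.84, adjusted p = 0.0197), and TGFA stood at 15.3 and 14.5 RPKM in ISO cells, against 16.7 and 16.5 RPKM in untreated cells (-0.16, adjusted p = 0.0494). EGFR stood at 6.95 and 7.24 RPKM in ISO cells, against 7.49 and 7.71 RPKM in untreated cells, and did not pass (adjusted p = 0.196). With limma-voom EGFR did pass (-0.16, adjusted p = 0.0101), so that 4 of the 7 fell. EREG passed in each fit that left out 1 library, whereas AREG passed in 2 of these 4, DUSP1 in 1 (without untreated a), and MAP2K1, RASA2, TGFA, ETS2 and DUSP10 in none.

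In the JNK and p38 branch, the MAPK arms that answer mainly to stress, none of 12 genes passed in limma, 2 had an unadjusted p under 0.05 and the median was 0.02 (-0.04 after TMM scaling). These 2 were MAP2K6, at 0.666 and 0.771 RPKM in ISO cells, against 0.541 and 0.499 RPKM in untreated cells, and MAP3K7, at 5.31 and 5.32 RPKM in ISO cells, against 4.89 and 4.91 RPKM in untreated cells. Both stood higher in ISO cells, and MAP2K6 rose with limma-voom (adjusted p = 0.00579).

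**Figure D4:**
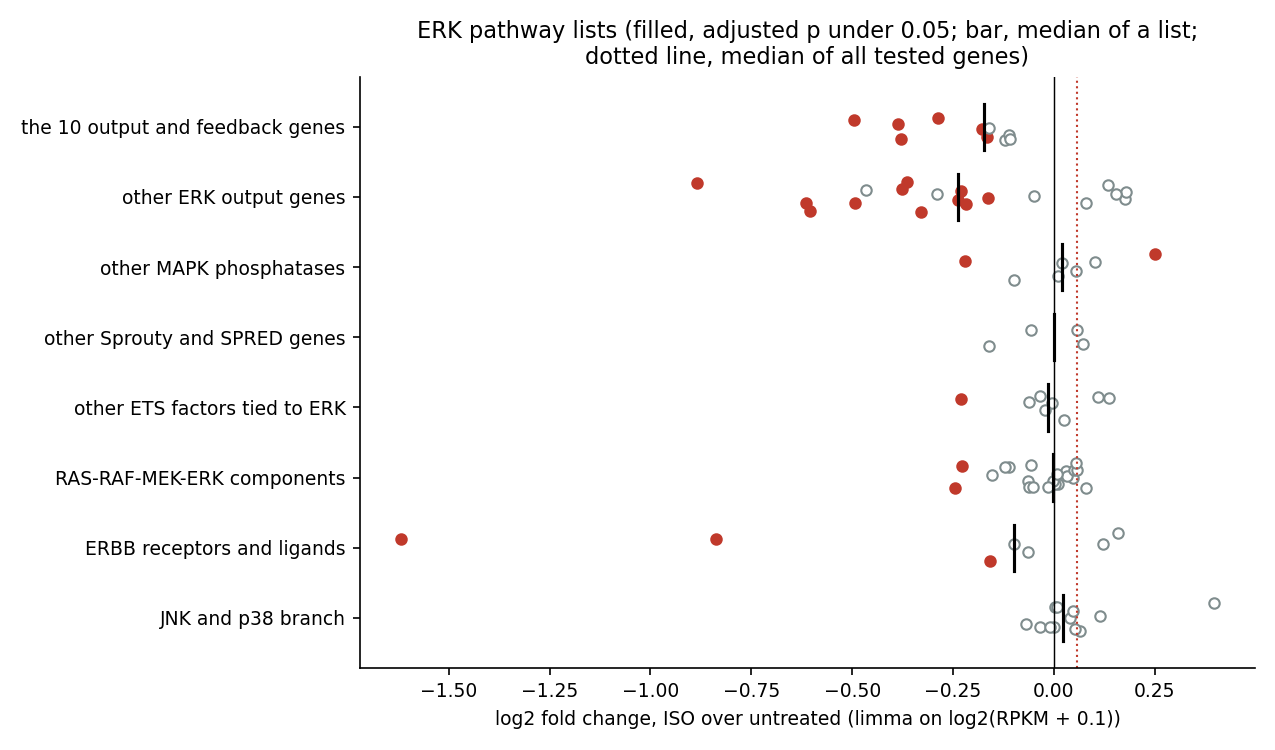
Log2 fold change, ISO over untreated (horizontal axis, limma on log2(RPKM + 0.1)), of each tested gene in the 10 output and feedback genes and in 7 lists of pathway relatives. Filled points passed at an adjusted p under 0.05, bars mark the median of a list and the dotted line that of all tested genes (0.06). The medians of the 10 genes (-0.17), of the other ERK output genes (-0.24) and of the ERBB receptors and ligands (-0.10) lie left of 0. Those of the RAS-RAF-MEK-ERK components and of the JNK and p38 branch lie within 0.03 of 0 before any TMM scaling.

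The marker lists were mixed. Among the epithelial markers KRT7, KRT18 and KRT19 also fell, 3 of 5 tested, beside 4.12% of all tested genes, with a median of -0.21. With limma-voom 4 of these 5 fell, beside 10.3% of all tested genes. The 8 listed epithelial genes together stood between 719 and 730 RPKM in ISO cells, against between 836 and 847 RPKM in untreated cells. KRT18 stood at 263 and 256 RPKM in ISO cells, against 302 and 298 RPKM in untreated cells (-0.21, adjusted p = 0.0131). KRT7 passed in each fit that left out 1 library, KRT19 in 2 of these 4 fits and KRT18 in none, while EPCAM stood at 1.19 and 1.30 RPKM in ISO cells, against 1.14 and 1.26 RPKM in untreated cells (adjusted p = 0.781). Of the endothelial list, 2 of 4 genes were tested and CDH5 fell (-0.31, adjusted p = 0.00749). The other, PECAM1, had 53 and 51 reads in ISO cells, against 42 and 24 reads in untreated cells, a difference of 0.52 that passed with limma-voom (adjusted p = 0.0417) and not with limma (adjusted p = 0.234). The 4 genes together stood between 14.2 and 14.7 RPKM in ISO cells, against between 17.7 and 17.8 RPKM in untreated cells, nearly all of it CDH5, with KDR at 0 and VWF at no more than 5 reads a library. The leukocyte marker CD14 stood at 3.08 and 3.67 RPKM in ISO cells, against 3.02 and 2.98 RPKM in untreated cells (adjusted p = 0.285). The part of these changes in the values of the members was not tested.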

How the data were processed

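RNA-sequencing libraries of T24 cells (2 ISO, 2 untreated, n = 2 each) were made with a TruSeq RNA kit and sequenced in pairs. The authors aligned trimmed reads to hg38, counted those on exons gene by gene and deposited the result as RPKM, not scaled by TMM, which the study applied only before its own test. Their columns of group means were checked against the libraries and not used otherwise. The labels name RPMI-1640 as the medium and the methods another one. RPKM were multiplied by GENCODE v44 exon lengths (47416 identifiers matched) to recover reads, and per library 98.8% of the nonzero values were whole to within 0.05, where 1 step may be a read or a read pair.

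The comparison of ISO with untreated cells used limma (version 3.58.1, under R 4.3.3) with a variance trend on log2(RPKM + 0.1) over the 15304 genes that averaged 0.1 RPKM or more, two-sided, with Benjamini-Hochberg adjustment over these genes and a threshold of 0.05. A fold change on this scale understates that of low genes. Because the deposited unit is RPKM and not a count, no count model was used as the main test. As alternatives, the pseudocount was set to 1 and 0.01, the filter was dropped or raised to 1 RPKM, and the fit was repeated with TMM scaling (own code, with 30% of the log ratios and 5% of the levels trimmed), median-of-ratios scaling, limma-voom on recovered reads for genes averaging 10 reads or more, a replicate block and the omission of each library. The scripts were tested on simulated data.

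The genes named are the 10 members, up to 3 called genes per direction of each other list by smallest p, any gene needed where a count is 5 or fewer, and the 3 genes nearest to DUSP6. EGR1, FOS, IER5, SPRY1, SPRY3, ETV1, EPHA4, HMGA2, TRIB1, IER2, KLF6, PHLDA2, HRAS, EGFR, HBEGF, the antisense partners and the markers named in the text were added after their values were seen. Some listed markers are not reported here. The members and lists were chosen with earlier results of these data known. Promoter windows are from RefSeq (GRCh38.p14). Software for tables and plots was Python 3.11.15, pandas 2.3.3, numpy 2.4.6 and matplotlib 3.10.9.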

Additional observations from a re-analysis of the deposited data

How the results depend on the processing

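No member changed sign under any of 13 alternatives, and of 130 comparisons of a member with its value as reported, 100 stayed on their side of the threshold, 21 lost the call and 9 gained it. The number of members that fell, 6 as reported, was 2 with no filter on low values, and between 2 and 3 with 1 library left out, a fit that lends the remaining library the spread of the other group. The 2 that passed in each of these fits were PHLDA1 and IER3, and SPRY2 was added without ISO library a. The number of members that fell was 4 with the replicate block, which lost SPRED1 (adjusted p = 0.0623) and ETV5 (adjusted p = 0.0695). It was 7 with a mean of at least 1 RPKM, where 742 of all 10735 tested genes fell and 1945 rose. Over all tested genes, 161 fell and 188 rose with no filter, over 24052 genes. With limma-voom 1556 fell, against 630 as reported. For genes that rose, 1424 as reported, TMM scaling gave 606 and median-of-ratios scaling 650. With 1 library left out, between 197 and 241 genes fell and between 218 and 383 rose. The replicate block gave 536 that fell and 1126 that rose. No source says whether the letters a and b pair the libraries. The differences between a and b were weakly opposed in the 2 groups (Pearson r = -0.139 across 5944 genes above 5 RPKM). With 1 such difference per group, this correlation cannot decide whether the libraries were handled as pairs. A block with the letters crossed, added after seeing the data, called 696 lower, 1625 higher and 7 members lower. DUSP4, DUSP5 and SPRY4 were between 7.32% and 8.05% lower by means, and the smallest change this design can call was not determined.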
